A study of Mus musculus with 18 samples.

Results

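Mouse hepatocytes given an siRNA against transthyretin (Ttr) together with a scrambled REVERSIR were compared with hepatocytes given PBS. The comparison takes 6 of the 18 RNA sequencing libraries of the study, 3 of each group, chosen by their sample titles. The other 12 libraries, 3 in each of 4 groups, received the siRNA alone, the siRNA with a REVERSIR directed at it (TTR REVERSIR), the scrambled REVERSIR alone or the TTR REVERSIR alone. All groups share the same cells, plateable hepatocytes of male CD-1 mice that had been cryopreserved, and total RNA was sequenced. The sources used here state neither doses nor exposure times. Nothing in the labels says that the replicates are separate cultures or animals, so p-values measure the spread between these libraries, which may be technical. The scrambled REVERSIR stands in the labels as the control for the TTR REVERSIR, and the question of the pair is what the siRNA does to the hepatocyte transcriptome when an oligonucleotide of REVERSIR type without the matching sequence is present.

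An siRNA is a short RNA duplex whose guide strand is loaded into an Argonaute protein and pairs with its target mRNA, which is then cleaved. Conjugates of siRNA with N-acetylgalactosamine (GalNAc) enter hepatocytes through the asialoglycoprotein receptor, an endocytic receptor of the hepatocyte surface. A REVERSIR is a modified oligonucleotide designed to pair with the guide strand itself and so to block the silencing complex. Transthyretin is a plasma carrier of thyroxine and, bound to retinol-binding protein, of retinol, and hepatocytes are its main source in blood.

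The 3 libraries of siRNA + scrambled REVERSIR held 10145265, 8707999 and 5381532 counts in replicates 1 to 3, and the PBS libraries held 6753263, 5862972 and 3871163. Levels below are in CPM, counts relative to a library size scaled by TMM, which sets the bulk of genes level between libraries. PBS replicates 1 and 2 stood apart from the rest. The 2 ribosomal RNAs of the mitochondrion took 9.56%, 2.34% and 2.69% of the counts in siRNA + scrambled REVERSIR, against 24.3%, 24.1% and 5.45% in PBS. The 10 most abundant genes took 20.9%, 14.8% and 14.6% of the counts in siRNA + scrambled REVERSIR, against 38.3%, 38.3% and 17.4% in PBS. PBS replicate 3 differed from its group in another transcript. AY036118, annotated as a pseudogene, had 361, 686 and 3740 CPM of the unscaled total in siRNA + scrambled REVERSIR, against 4.89, 17.1 and 15141 in PBS. It also ran from 71.8 to 17517 within scrambled REVERSIR, so a wide spread of this transcript was not particular to PBS. Summed levels of 15 hepatocyte marker genes were 59375 to 60485 CPM in siRNA + scrambled REVERSIR and 59119 to 70213 CPM in PBS, with none of the 15 at 0. Of 8 lymphocyte markers 6 had no count in any of the 6 libraries, and the summed levels of the others were 0.347 to 0.600 CPM in siRNA + scrambled REVERSIR and 0 to 0.225 CPM in PBS. Because of the first difference, results are given with all 3 PBS libraries and, for many genes, also with PBS replicate 3 alone as an alternative. The fit with 1 PBS library takes its spread from the other groups.

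Ttr had the lowest fold change of the genes that passed the test. Its mRNA (ENSMUSG00000061808, NCBIM37 chr18:20823751-20832825, plus strand) had 226, 225 and 226 CPM in siRNA + scrambled REVERSIR, against 1032, 1079 and 1218 CPM in PBS. The groups did not overlap, and the 3 treated libraries were closer to each other than the 3 controls. The mean was 225.8 ± 0.685 CPM in siRNA + scrambled REVERSIR and 1110 ± 96.6 CPM in PBS (SD, n = 3 each), which left 20.3% ± 0.0617 of the PBS mean. The treated SD was 0.303% of its mean, below the counting error of each treated library taken alone, which was 2.10% to 2.77%. Counting error alone gave exact Poisson 95% intervals of 217 to 236, 216 to 235 and 214 to 238 CPM for the 3 treated libraries. The annotated gene Gm16090 overlaps Ttr, and reads of the 2 cannot be told apart where the strand of counting is not stated.

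The log2 fold change of Ttr, siRNA + scrambled REVERSIR over PBS, was −2.30 ± 0.0939 (SE, 95% interval −2.49 to −2.10), a 4.91-fold reduction with an adjusted p of 2.04e-14 (edgeR quasi-likelihood test, Benjamini-Hochberg over 11153 genes). An exact two-sided permutation test of the CPM of 3 against 3 libraries gave p = 0.1, the smallest it can give. Against PBS replicate 3 alone the log2 fold change was −2.43 (adjusted p = 1.28e-12, edgeR), and the treated libraries held 18.6%, 18.5% and 18.5% of that library's level.

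Ttr in the combination was close to Ttr in siRNA alone, and the difference did not pass the test. Ttr was 225.8 ± 0.685 CPM in siRNA + scrambled REVERSIR and 242 ± 19.1 CPM in siRNA (SD, n = 3 each). The log2 difference was −0.10 ± 0.0910 (SE, 95% interval −0.29 to 0.086), with an edgeR p of 0.274 and 0.342 after adjustment over 5 Ttr comparisons. The two-sided permutation test, exact over 3 against 3 libraries, gave p = 0.4. The upper bound allows a level at most 0.086 log2 units above that of the siRNA, and the lower bound one 0.29 log2 units below it. The effect of the siRNA in the presence of the scrambled REVERSIR minus its effect over PBS was −0.11 ± 0.128 log2 units (95% interval −0.37 to 0.15, edgeR adjusted p = 0.802).

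The other 4 groups had higher Ttr. Ttr was 1116 ± 47.6 CPM in scrambled REVERSIR, and the log2 fold change of siRNA + scrambled REVERSIR over it was −2.30 (edgeR adjusted p = 2.05e-14). In siRNA + TTR REVERSIR it was 1052 ± 112 CPM, and the log2 fold change of siRNA + scrambled REVERSIR over that group was −2.22 (edgeR adjusted p = 4.06e-14). TTR REVERSIR alone had 1263 ± 157 CPM (SD, n = 3 for each of these groups). In order, siRNA + scrambled REVERSIR and siRNA were lowest and did not differ beyond their spread, and each library of the other 4 groups lay at 976 CPM or above.

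**Figure D1:**
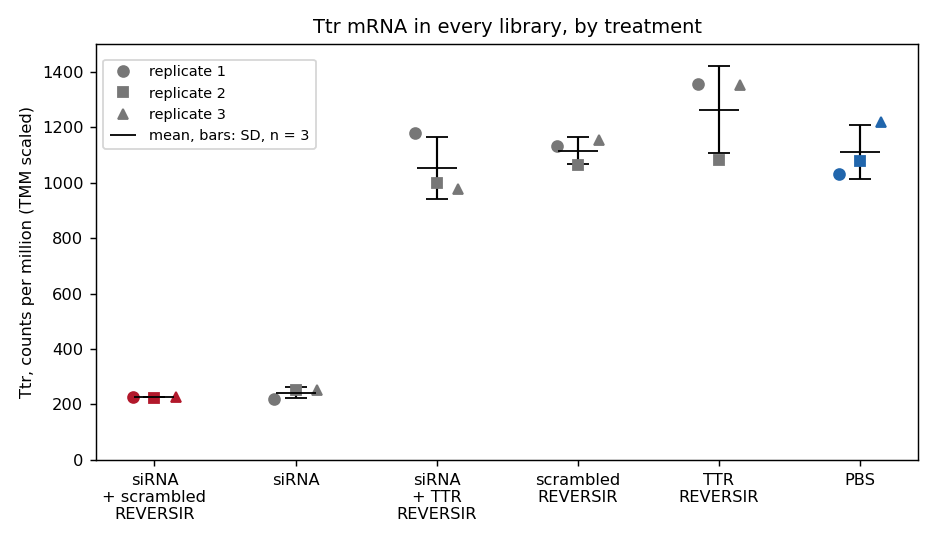
Ttr in CPM after TMM scaling (vertical axis, from 0) in each of the 18 libraries, by treatment (horizontal axis). Points are libraries with 1 symbol per replicate number, and bars are the mean ± SD of 3 libraries. The 3 libraries of siRNA + scrambled REVERSIR lie at 225 to 226 CPM, beside those of siRNA, and the PBS libraries lie at 1032 to 1218 CPM.

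Across the transcriptome 68 of 11153 genes passed an adjusted p of 0.05 (0.61%), Ttr included. Of these 23 were higher in siRNA + scrambled REVERSIR (0.206%) and 45 were lower (0.403%). The test was edgeR's quasi-likelihood test over all 18 libraries with Benjamini-Hochberg adjustment. At an unadjusted p under 0.05 the number was 1976 (17.7%). With library totals in place of TMM scaling the median gene moved by 0.32 log2 units and the split became 3520 higher and 26 lower. The other calls were far smaller than Ttr: the median size over the 67 genes was 0.56 log2 units, and 8 of the 67 changed at least 2-fold. By type 57 were protein coding and 6 were annotated pseudogenes, and all 6 pseudogenes were lower. Of the 11153 genes tested 10664 were protein coding and 198 were annotated pseudogenes.

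None of the 67 calls other than Ttr passed without PBS replicates 1 and 2. Against PBS replicate 3 alone, 1 of 11525 genes passed (Ttr, 0.00868%), and the median size of the 67 was 0.24 log2 units, against 0.56 with all 3 PBS libraries. Of the 67 genes 65 kept the sign of their change. In 61 of the 67 the groups did not overlap, which largely sets that sign in advance, so the kept signs are no separate check. In 40 of the 67 PBS replicate 3 lay nearer to the treated mean than to the mean of the other 2 PBS libraries. The share of mitochondrial ribosomal RNA moved with these calls, and its part in them was not tested. With that share as a covariate, 2 genes passed, of which 1 was Ttr. Sizes changed unevenly in that fit. BC002230 was at 0.98 and Gm16869 at −2.03, beside 1.01 and −2.11 without the covariate. Rybp was at −0.32 and Ireb2 at −0.28, beside −0.81 and −0.69. PBS replicates 1 and 2 held the largest shares, so the fall in calls cannot be split into smaller changes and lost precision. Other libraries moved the count too. It was 11, 1 and 3 without siRNA + scrambled REVERSIR replicates 1, 2 and 3, and 1, 5 and 1146 without PBS replicates 1, 2 and 3. Of the 67 genes 0 were called in all 6 of these fits. By DESeq2 34 of the 67 passed, and the other 33 had no adjusted p there.

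**Figure D2:**
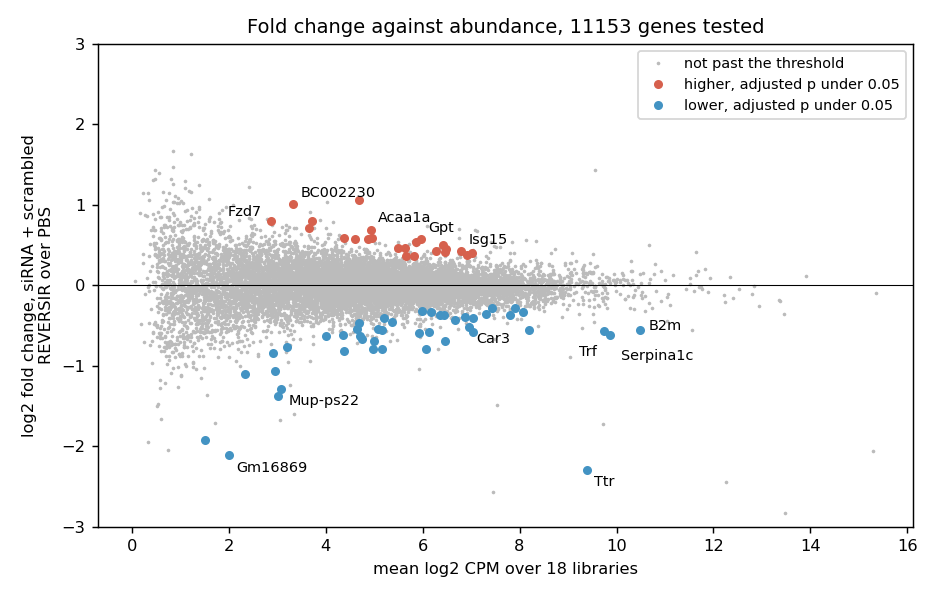
Log2 fold change of siRNA + scrambled REVERSIR over PBS (vertical axis) against mean log2 CPM over 18 libraries (horizontal axis) for the 11153 genes tested. Coloured points passed an adjusted p of 0.05 in the edgeR test, 23 higher and 45 lower, and Ttr at −2.30 has the lowest fold change among them.

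**Figure D3:**
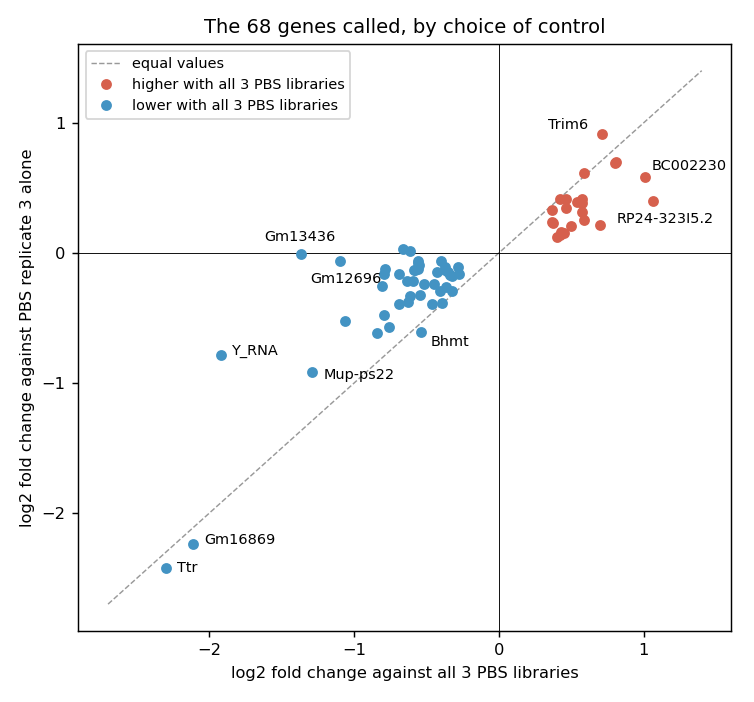
Log2 fold change of the 68 genes called, against PBS replicate 3 alone (vertical axis) and against all 3 PBS libraries (horizontal axis), with the line of equal values. Ttr and Gm16869 lie near the line, and most other points lie nearer to 0 on the vertical axis.

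Genes of RNA sensing and the interferon response leaned to the higher side. Double-stranded RNA is sensed in the endosome by Tlr3 and in the cytosol by Ddx58 (RIG-I) and Ifih1 (MDA5), and the signal runs through interferon regulatory factors to antiviral genes. Of 55 genes listed 49 were tested, 1 symbol matched no gene, and Tlr7, Tlr9, Tmem173, Oas2 and Psmb9 were below the filter on low counts. Over all genes tested 0.206% were called higher and 0.403% lower at an adjusted p of 0.05 in edgeR. Of the 49, 4 were called higher (Parp10, Psmb8, Trim6 and Isg15) and 0 lower. At an unadjusted p under 0.05, 17 were higher and 3 lower, where 8.16% of all genes tested were higher and 9.56% lower. The fitted change was above 0 for 40 of 49, against 49.6% of all genes tested, and its median was 0.11, against −0.0016 over all genes tested. In 17 of the 49 the 3 treated libraries all lay above the 3 PBS libraries (34.7%, against 9.5% of all genes tested), and in 1 they all lay below.

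The median of the interferon list did not shrink without PBS replicates 1 and 2. Against PBS replicate 3 alone the median log2 fold change of the list was 0.16, against 0.0059 over all genes, and 39 of 49 were above 0, where 51.3% of all genes were. Of the 49, 9 were higher and 0 lower at an unadjusted p under 0.05, where 2.32% of all genes were higher and 1.95% lower. They include Trim6, Isg15, Parp10, Ifit3, Usp18, Irf7, Mx1 and Oas1a. None of the 49 passed the adjusted threshold in that fit. PBS was the lowest of the 6 group means for 24 of the 49 genes (49%), against 24.9% of all genes tested. That PBS mean includes replicates 1 and 2. PBS replicate 3 lay within the treated range over all groups for 43 of the 49 (87.8%), against 88.5% of all genes tested. The list median was 0.021 against siRNA and 0.067 against scrambled REVERSIR.

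Isg15, a ubiquitin-like protein that interferon induces, had 126, 117 and 128 CPM in siRNA + scrambled REVERSIR, against 90.9, 91.8 and 92.9 CPM in PBS. All 3 treated libraries were above all 3 controls, which lay close together. It changed by 0.42 ± 0.0980 log2 units (SE, edgeR adjusted p = 0.0452), and by 0.41 against PBS replicate 3 alone. The mean was 126 ± 6.99 CPM in siRNA, 114 ± 15.5 in siRNA + TTR REVERSIR, 106 ± 14.1 in scrambled REVERSIR and 109 ± 17.2 in TTR REVERSIR (SD, n = 3), so that each treated group lay above PBS on average. Between siRNA + scrambled REVERSIR and siRNA the log2 difference was −0.03 ± 0.0933.

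Trim6, an E3 ubiquitin ligase that in human cells takes part in interferon signalling, had 14.8, 16.8 and 13.3 CPM in siRNA + scrambled REVERSIR, against 8.12, 11.5 and 8.05 CPM in PBS. The groups did not overlap, and PBS replicate 2 came nearest to the treated libraries. Trim6 was higher by 0.71 ± 0.160 log2 units (edgeR adjusted p = 0.0373), and 0.91 against PBS replicate 3 alone. Parp10, a mono-ADP-ribosyltransferase, had 66.1, 61.4 and 61.2 CPM in siRNA + scrambled REVERSIR, against 35.6, 47.0 and 48.3 CPM in PBS. PBS replicate 1 was the low one, and the groups did not overlap. Its log2 fold change was 0.54 ± 0.107 (edgeR adjusted p = 0.0194), and 0.39 against PBS replicate 3 alone. Parp10 overlaps Plec in the annotation, so its count is uncertain.

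Psmb8, a catalytic subunit of the immunoproteasome, had 79.3, 80.9 and 80.8 CPM in siRNA + scrambled REVERSIR, against 52.1, 55.8 and 72.0 CPM in PBS. Here PBS replicate 3 lay well above the other controls though still below the treated libraries. On the log2 scale the change was 0.43 ± 0.0907 (edgeR adjusted p = 0.0279), and 0.16 against PBS replicate 3 alone. Psmb8 and Gm20496 overlap in the annotation.

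Several members that missed the adjusted threshold had treated libraries above all controls. Irf7, a transcription factor of the interferon loop, had 183, 178 and 188 CPM in siRNA + scrambled REVERSIR, against 155, 169 and 157 CPM in PBS (log2 fold change 0.19 ± 0.0689, edgeR adjusted p = 0.152). For Ifit3, an interferon-induced antiviral gene, the values were 44.9, 43.7 and 52.0 CPM in siRNA + scrambled REVERSIR, against 39.8, 38.5 and 34.0 CPM in PBS (0.31 ± 0.119, adjusted p = 0.178). In both genes the treated libraries lay above the controls by small margins. Oas3, a synthetase of the RNase L activator, came next to the threshold with 16.6, 16.02 and 17.5 CPM in siRNA + scrambled REVERSIR, against 8.71, 8.55 and 13.6 CPM in PBS (0.71 ± 0.175, adjusted p = 0.0524). PBS replicate 3 lay above the other controls, and against it alone the value was 0.30.

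None of the 3 sensors named above passed the test. Tlr3 had 20.5, 18.4 and 23.1 CPM in siRNA + scrambled REVERSIR, against 16.2, 16.9 and 16.4 CPM in PBS (log2 fold change 0.31 ± 0.144, edgeR adjusted p = 0.262). Ddx58 had 158, 133 and 146 CPM in siRNA + scrambled REVERSIR, against 161, 161 and 134 CPM in PBS (−0.06 ± 0.0750, adjusted p = 0.715). Ifih1 had a log2 fold change of −0.07 ± 0.0900 (adjusted p = 0.740). All 3 were above 0 against PBS replicate 3 alone, at 0.33 for Tlr3, 0.13 for Ddx58 and 0.12 for Ifih1. The groups overlapped for Ddx58 and not for Tlr3. Among the 9 members with a negative log2 fold change, Isg20, an interferon-induced exonuclease, was lowest at −0.37 ± 0.169 (edgeR adjusted p = 0.248), and at −0.22 against PBS replicate 3 alone.

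**Figure D4:**
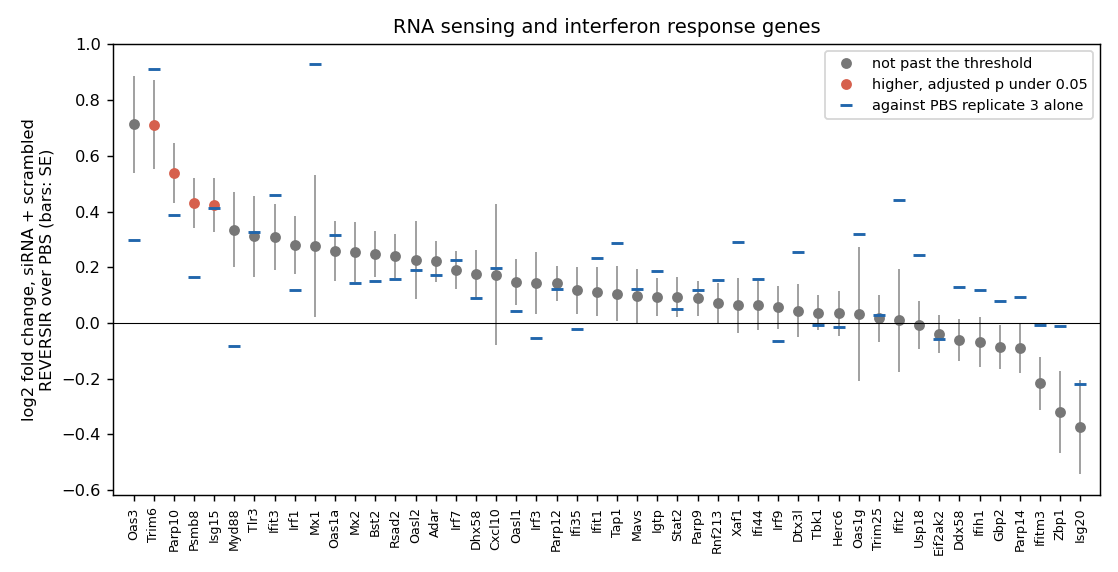
Log2 fold change of siRNA + scrambled REVERSIR over PBS (vertical axis, bars are SE) for 48 of the 49 tested genes of RNA sensing and interferon response (horizontal axis, highest first). Red points passed an adjusted p of 0.05 in the edgeR test, and blue dashes give the value against PBS replicate 3 alone. Of the 48 genes 39 lie above 0 with all 3 PBS libraries and 38 with PBS replicate 3 alone.

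The promoters of the called members show how they differ in the element bound by interferon regulatory factors, which repeats GAAA. RefSeq sequences of 250 bases before the start (GRCm38.p6) were available for 3 of the 4, and both strands were searched for GAAA, any 2 bases and GAAA again, or TTTC, any 2 bases and TTTC on the other strand. Isg15 (chr4:156200819-156201068, minus strand) held 3 overlapping matches, shown in capitals, between bases −78 and −57 from the start. Psmb8 (chr17:34197945-34198194, plus strand) and Trim6 (chr7:104218545-104218794, plus strand) held no match in these windows. A match is a description of the letters and not a bound site.
Isg15: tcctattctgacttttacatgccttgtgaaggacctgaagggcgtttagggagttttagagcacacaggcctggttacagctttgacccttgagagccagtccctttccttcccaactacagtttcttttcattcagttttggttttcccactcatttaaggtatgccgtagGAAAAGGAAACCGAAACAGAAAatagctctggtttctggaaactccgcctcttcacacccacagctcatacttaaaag
Psmb8: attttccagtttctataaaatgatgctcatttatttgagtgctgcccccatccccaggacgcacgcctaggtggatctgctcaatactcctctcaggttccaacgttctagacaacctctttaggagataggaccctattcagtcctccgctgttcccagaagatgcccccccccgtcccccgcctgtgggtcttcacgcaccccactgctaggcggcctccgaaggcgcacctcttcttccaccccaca
Trim6: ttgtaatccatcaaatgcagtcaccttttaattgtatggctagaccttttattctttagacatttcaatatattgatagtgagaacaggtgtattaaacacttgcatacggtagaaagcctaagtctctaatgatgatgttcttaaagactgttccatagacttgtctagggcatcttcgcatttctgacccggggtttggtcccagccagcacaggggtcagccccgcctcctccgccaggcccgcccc
Of all 32851 windows of this length 978 held the motif (2.98%), and of 42 listed interferon genes with a window 13 did (31%).

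Against PBS replicate 3 alone 12 of the 67 genes kept at least 0.8 of their log2 fold change, 7 higher and 5 lower. They include Isg15 and Trim6. Fzd7, a Wnt receptor, had 9.30, 8.22 and 9.36 CPM in siRNA + scrambled REVERSIR, against 5.35, 4.50 and 5.54 CPM in PBS (log2 fold change 0.80 ± 0.186, edgeR adjusted p = 0.0465). Slc24a6, the sodium-calcium exchanger of the mitochondrial inner membrane, had 24.3, 23.5 and 24.8 CPM in siRNA + scrambled REVERSIR, against 15.2, 17.1 and 15.9 CPM in PBS (0.59 ± 0.135, adjusted p = 0.0432). Arhgef10l, a guanine nucleotide exchange factor, had 48.5, 52.0 and 51.0 CPM in siRNA + scrambled REVERSIR, against 37.6, 34.2 and 38.0 CPM in PBS (0.46 ± 0.0962, adjusted p = 0.0264). In all 3 genes the groups were apart and the 3 controls lay close together. Choosing called genes by the size kept against PBS replicate 3 favours this, also among the 5 lower genes, so it is no separate check. The other 2 higher genes were Unc45a, a myosin chaperone, at 0.37, and 2310011J03Rik, which overlaps Apc2, at 0.81.

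Among the 5 lower genes Fam117b had the smallest p after Gm16869. It had 106, 103 and 103 CPM in siRNA + scrambled REVERSIR, against 141, 132 and 136 CPM in PBS. Fam117b changed by −0.39 ± 0.0683 (edgeR adjusted p = 0.0120), and −0.39 against PBS replicate 3 alone. Bhmt, which remethylates homocysteine with betaine, had 23.6, 21.5 and 21.3 CPM in siRNA + scrambled REVERSIR, against 31.9, 31.0 and 34.0 CPM in PBS (−0.54 ± 0.127, adjusted p = 0.0499). Both genes were lower in all 3 treated libraries than in any control. Rg9mtd1, a methyltransferase subunit of the mitochondrial RNase P, had 58.1, 57.7 and 58.2 CPM in siRNA + scrambled REVERSIR, against 73.1, 72.9 and 71.5 CPM in PBS (−0.32 ± 0.0664, adjusted p = 0.0253). Uchl3, a ubiquitin hydrolase, changed by −0.46 log2 units.

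Gm16869 had the lowest fold change after Ttr. This lincRNA (NCBIM37 chr9:3000282-3038313, minus strand) had 1.70, 2.06 and 3.29 CPM in siRNA + scrambled REVERSIR, against 9.90, 8.55 and 10.6 CPM in PBS. All treated libraries were below all controls, at a level of few reads. Its log2 fold change was −2.11 ± 0.358 (edgeR adjusted p = 0.0120), and −2.24 against PBS replicate 3 alone. Its annotated span overlaps 6 other genes, so that its reads cannot be assigned with certainty. The mean was 2.87 ± 1.76 CPM in siRNA, 2.75 ± 1.01 in siRNA + TTR REVERSIR, 6.12 ± 1.90 in scrambled REVERSIR and 3.44 ± 3.32 in TTR REVERSIR (SD, n = 3).

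**Figure D5:**
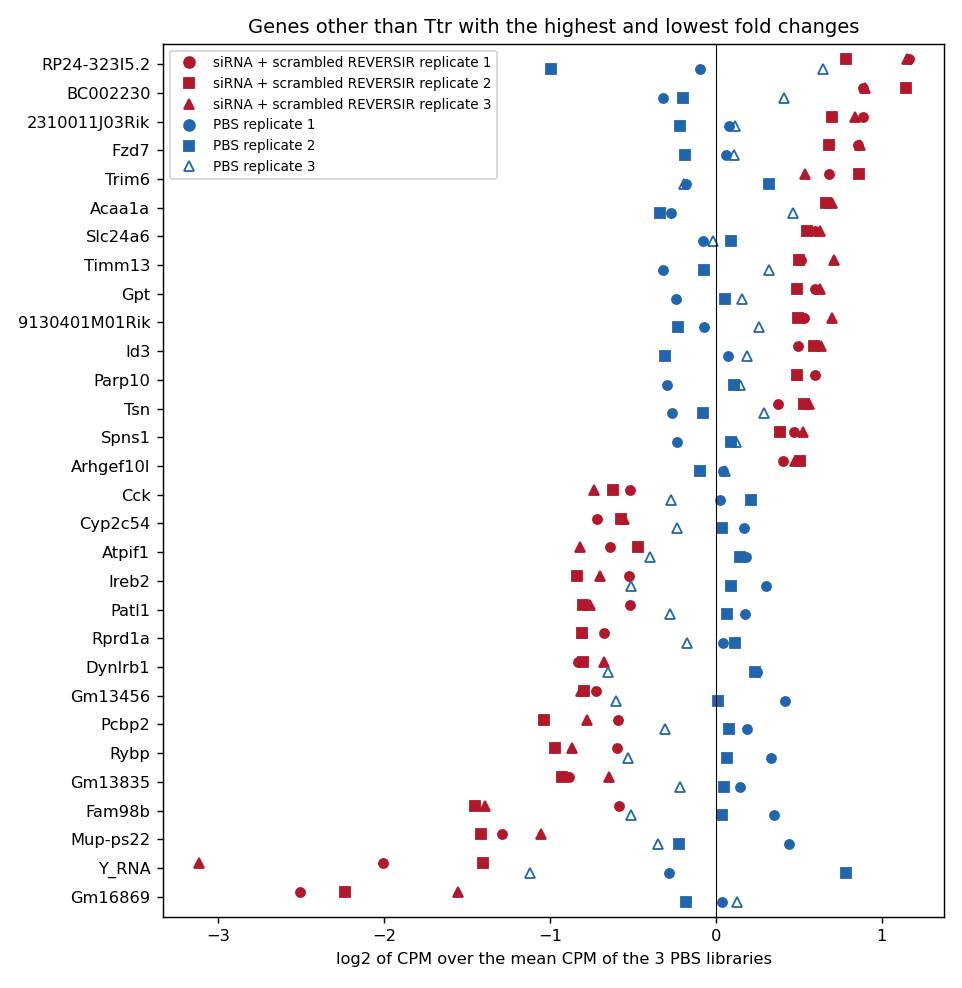
Log2 of the CPM over the mean CPM of the 3 PBS libraries (horizontal axis) for 30 called genes other than Ttr, the 15 highest and 15 lowest by fold change (vertical axis), 6 libraries each. Red symbols are siRNA + scrambled REVERSIR, filled blue symbols are PBS replicates 1 and 2 and open triangles are PBS replicate 3. Only called genes whose groups do not overlap were taken for this choice. For genes such as Dynlrb1, Ireb2 and RP24-323I5.2 the open triangle lies close to the red symbols.

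In amino acid metabolism, 1 of 51 tested genes was called higher and 1 lower, where 0.206% of all genes tested were called higher and 0.403% lower. Gpt, the alanine aminotransferase, had 70.6, 65.5 and 72.1 CPM in siRNA + scrambled REVERSIR, against 39.6, 48.6 and 52.1 CPM in PBS. The treated libraries were all above the controls, and PBS replicate 1 was lowest. The log2 fold change was 0.57 ± 0.101 (edgeR adjusted p = 0.0120), and 0.42 against PBS replicate 3 alone. The lower gene was Bhmt. In fatty acid oxidation 1 of 37 tested genes was called, Acaa1a, the peroxisomal thiolase, which overlaps Myd88. It had 32.9, 32.9 and 33.8 CPM in siRNA + scrambled REVERSIR, against 17.2, 16.4 and 28.7 CPM in PBS. Its log2 fold change was 0.69 ± 0.150 (adjusted p = 0.0319), and 0.21 against PBS replicate 3 alone.

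Genes of iron handling, mRNA decay and the respiratory chain contributed lower calls that shrank when PBS replicates 1 and 2 were left out. Of 30 tested genes of iron and heme 3 were called lower, where 0.403% of all genes tested were. Trf, the plasma iron carrier transferrin, had 759, 811 and 798 CPM in siRNA + scrambled REVERSIR, against 1433, 1231 and 829 CPM in PBS. PBS replicate 3 lay beside the treated libraries, though above all 3. Trf changed by −0.56 ± 0.113 (edgeR adjusted p = 0.0207), and −0.06 against PBS replicate 3 alone. Ireb2, an iron regulatory protein, changed by −0.69 (−0.16 against PBS replicate 3 alone). Pcbp2, a poly(C)-binding protein and iron chaperone whose exons overlap Map3k12, changed by −0.79 (−0.47).

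Of 37 tested genes of decapping, deadenylation and decay 3 were called lower and 0 higher, where 0.403% of all genes tested were lower and 0.206% higher. Patl1, a decapping activator, had 33.1, 27.2 and 27.9 CPM in siRNA + scrambled REVERSIR, against 53.5, 49.5 and 39.0 CPM in PBS (−0.69 ± 0.133, edgeR adjusted p = 0.0181, and −0.40 against PBS replicate 3 alone). Pnrc1 changed by −0.59 and Lsm14b by −0.45, and by −0.13 and −0.24 against PBS replicate 3 alone. The median over the list was −0.03, against −0.0016 over all genes.

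Of 81 tested nuclear-encoded genes of the respiratory chain and ATP synthase, 1 was called higher and 4 lower, beside the same shares over all genes. Atp5g3, a c subunit of the ATP synthase, had 126, 126 and 134 CPM in siRNA + scrambled REVERSIR, against 90.3, 98.1 and 110 CPM in PBS (log2 fold change 0.37 ± 0.0738, edgeR adjusted p = 0.0194, and 0.23 against PBS replicate 3 alone). The lower genes were Ndufv2 and Ndufa12 of complex I, Uqcrb of complex III and Atpif1, the inhibitor of the ATP synthase. Ndufv2 had 63.6, 64.5 and 66.7 CPM in siRNA + scrambled REVERSIR, against 107, 111 and 71.2 CPM in PBS (−0.58 ± 0.106, adjusted p = 0.0169, and −0.13 against PBS replicate 3 alone). In the 4 lower genes PBS replicate 3 lay nearer to the treated libraries than PBS replicates 1 and 2 did. Ndufa12 was at −0.09, Uqcrb at −0.14 and Atpif1 at −0.22 against PBS replicate 3 alone. Uqcrb overlaps Gm10767 and Atpif1 overlaps Gm12999 in the annotation, so their counts are uncertain.

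The 13 mRNAs of the mitochondrial genome gave 7 tested genes, of which 0 passed in edgeR and 6 had a negative log2 fold change. The other 6 were below the filter on low counts. The median of the 7 was −0.35 with all 3 PBS libraries and −0.15 against PBS replicate 3 alone. It lay between −0.42 and −0.023 over 17 alternatives. Of unscaled counts, the 13 mRNAs took 1.51%, 1.66% and 1.55% in siRNA + scrambled REVERSIR, against 1.54%, 1.58% and 1.62% in PBS. At an unadjusted p under 0.05, 5 of the 7 were lower and 1 higher, where 9.56% of all genes tested were lower and 8.16% higher. mt-Nd5, a subunit of complex I, had 591, 578 and 535 CPM in siRNA + scrambled REVERSIR, against 832, 868 and 750 CPM in PBS (−0.52 ± 0.153, adjusted p = 0.0863). Its groups did not overlap. The higher one was mt-Nd6, which overlaps mt-Nd5 on the other strand, so that both counts are uncertain. Its log2 fold change was 0.67 ± 0.232 (edgeR adjusted p = 0.134), and −0.02 against PBS replicate 3 alone. The mitochondrial ribosomal RNAs were higher in the same PBS libraries, and their part in these values was not tested.

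Among 32 secreted plasma proteins 2 were called lower, Trf and Serpina1c, where 0.403% of all genes tested were called lower. Serpina1c, a mouse copy of alpha-1-antitrypsin, had 915, 862 and 861 CPM in siRNA + scrambled REVERSIR, against 1592, 1574 and 875 CPM in PBS. PBS replicate 3 lay among the treated libraries, and the log2 fold change of −0.62 ± 0.133 (edgeR adjusted p = 0.0319) became 0.01 against that library alone. Of 19 tested major urinary proteins, near-identical carriers of pheromones, 18 had a negative log2 fold change with a median of −0.20, which was −0.085 against PBS replicate 3 alone and 0.12 with library totals in place of TMM scaling. Mup16 was the 1 called, with 28.3, 25.5 and 26.0 CPM in siRNA + scrambled REVERSIR, against 49.9, 49.0 and 26.2 CPM in PBS. Its log2 fold change of −0.66 became 0.03 against PBS replicate 3 alone, and reads of these copies can be shared. Mup-ps22, an annotated pseudogene outside that list, had the smallest p after Ttr. It had 5.90, 5.41 and 6.93 CPM in siRNA + scrambled REVERSIR, against 19.6, 12.4 and 11.3 CPM in PBS. The log2 fold change of Mup-ps22 was −1.29 ± 0.193 (edgeR adjusted p = 0.00365), and −0.91 against PBS replicate 3 alone.

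Genes around the known partners of Ttr did not pass. Of 24 genes of thyroid hormone and retinol handling 23 were tested and 0 were called in edgeR. At an unadjusted p under 0.05, 2 of them were higher and 3 lower, where 8.16% of all genes tested were higher and 9.56% lower. The median log2 fold change of the list was 0.03. Rdh16 was highest at 1.47 log2 units, between 1.11 and 3.09 over 17 alternatives, and past the threshold in 2 of them. Slco1a1, an organic anion transporter, had 63.2, 63.0 and 62.9 CPM in siRNA + scrambled REVERSIR, against 79.0, 73.8 and 72.2 CPM in PBS (−0.25 ± 0.0693, edgeR adjusted p = 0.0721, and 0.063 with library totals in place of TMM scaling). Slco1b2, a hepatic uptake transporter of the same family, had 31.6, 34.7 and 30.7 CPM in siRNA + scrambled REVERSIR, against 42.6, 37.8 and 41.5 CPM in PBS (−0.33 ± 0.0914, adjusted p = 0.0765). In both genes the treated libraries were below all controls, beside 9.67% of all genes tested.

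The machinery that takes up and uses an siRNA gave no call. Of 18 genes of RNA interference 0 were called in edgeR. At an unadjusted p under 0.05, where 8.16% of all genes tested were higher and 9.56% lower, 2 of the 18 were higher and 0 lower. These were Adar, an RNA editing enzyme (0.22 ± 0.0730, adjusted p = 0.118), and Tarbp2, a Dicer partner (0.36 ± 0.171, adjusted p = 0.273, and 0.0071 against PBS replicate 3 alone). Tsn, or translin, a subunit of the RNase that clears cut passenger strands from Argonaute in human and fly extracts, was outside that list. It had 86.7, 96.3 and 98.4 CPM in siRNA + scrambled REVERSIR, against 55.6, 63.2 and 81.5 CPM in PBS. The groups did not overlap, and PBS replicate 3 was the nearest control. Tsn had a log2 fold change of 0.50 ± 0.0944 (edgeR adjusted p = 0.0179), and 0.20 against PBS replicate 3 alone.

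Of 31 genes of the asialoglycoprotein receptor, endocytosis and lysosome 0 were called. At an unadjusted p under 0.05, 1 was higher and 4 lower, where 8.16% of all genes tested were higher and 9.56% lower. Asgr1, the major subunit of the receptor, had 138, 150 and 153 CPM in siRNA + scrambled REVERSIR, against 117, 126 and 128 CPM in PBS (log2 fold change 0.25 ± 0.0905, edgeR adjusted p = 0.148). Its treated libraries were above all controls. No member was called among 30 tested genes of ER stress, 33 of p53 and apoptosis, 25 of Nrf2 and oxidative stress, 32 of the acute phase, 29 of cholesterol and fatty acid synthesis and 16 hepatocyte transcription factors. Hmox1, the heme oxygenase, was nearest to the threshold with 218, 207 and 192 CPM in siRNA + scrambled REVERSIR, against 281, 302 and 219 CPM in PBS (−0.38 ± 0.0917, adjusted p = 0.0501). Against PBS replicate 3 alone it was −0.08.

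Of the other 7 lists 6 held a call, where 0.206% of all genes tested were called higher and 0.403% lower. Fzd7 and Id3, an inhibitor of helix-loop-helix factors, were the 2 called higher of 32 tested genes of BMP and Wnt signalling. Timm13, a small chaperone of mitochondrial import, was called higher among 21 genes (0.58, and 0.25 against PBS replicate 3 alone). Cyp2c54 was called lower among 47 genes of xenobiotic metabolism (−0.63, and −0.38 against PBS replicate 3 alone). Single lower calls were Rpl41 among 82 ribosomal protein genes, Dynlrb1 among 33 cytoskeletal and S100 genes, and Pcbp2 among 35 SR proteins and hnRNPs. Rpl41 was at −0.12 against PBS replicate 3 alone, beside −0.56 with all 3 PBS libraries, and Dynlrb1 at −0.12, beside −0.79. The 282 tested zinc finger genes named Zfp held 0 calls in edgeR. At an unadjusted p under 0.05, 11 of them were higher and 26 lower, where 8.16% of all genes tested were higher and 9.56% lower.

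Set directly against the siRNA alone, the combination gave 0 genes past the adjusted threshold in edgeR (0%), and 0 by DESeq2 and by limma-voom. At an unadjusted p under 0.05 there were 415 (3.72%). The 67 genes other than Ttr called against PBS had a median size of 0.067 log2 units against siRNA and 0.11 against scrambled REVERSIR. Against scrambled REVERSIR 2 genes were called (0.0179%), Ttr and Serpina7, with 694 at an unadjusted p under 0.05 (6.22%). Serpina7, the thyroxine-binding globulin, had 163, 168 and 206 CPM in siRNA + scrambled REVERSIR, against 262, 277 and 281 CPM in scrambled REVERSIR, a log2 fold change of −0.61 ± 0.107 (edgeR adjusted p = 0.0369). It was lower in all 23 alternatives, which were chosen for it after seeing the data, between −0.72 and −0.55, and passed in 15 of them. Over PBS the log2 fold change of Serpina7 was 0.03 ± 0.106 (edgeR adjusted p = 0.907). Its mean was 179 CPM in siRNA + scrambled REVERSIR, 175 in PBS, 175 in TTR REVERSIR and 170 in siRNA + TTR REVERSIR. The higher means were 274 CPM in scrambled REVERSIR and 231 in siRNA. Against siRNA + TTR REVERSIR 1 gene was called (0.00897%), which was Ttr, with 242 at an unadjusted p under 0.05 (2.17%). 

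Marker genes of other liver cells gave no call. Summed levels for Kupffer cells and macrophages were 329 to 341 CPM in siRNA + scrambled REVERSIR and 316 to 389 CPM in PBS. For liver endothelium they were 53.7 to 64.3 CPM in siRNA + scrambled REVERSIR and 57.9 to 66.6 CPM in PBS. These ranges overlapped, and 0 of the 12 tested markers of these cells were called in edgeR. Stellate cell and fibroblast markers summed to 150 to 158 CPM in siRNA + scrambled REVERSIR and 164 to 173 CPM in PBS, with PBS the higher. Cholangiocyte markers summed to 12.8 to 19.7 CPM in siRNA + scrambled REVERSIR and 20.5 to 21.9 CPM in PBS, with Cftr at 0. The ranges of these last lists did not overlap, none of their tested members was called, and their part in the results above was not tested. Their members did not all go the way of the sums. The log2 fold change was above 0 for 3 of 7 tested stellate cell and fibroblast markers and 1 of 4 tested cholangiocyte markers. Of all genes tested 49.6% were above 0. In bulk RNA fewer cells of a type and less RNA per cell cannot be told apart.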

How the data were processed

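The deposited files hold raw read counts per Ensembl gene for each library. Alignment used STAR on NCBIM37, followed by DESeq2, per the submitters' processing notes; the sources used here name no counting tool, strand setting or version. The authors also deposited a DESeq2 table for this comparison, whose columns are a size-factor-scaled mean signal, a log2 fold change with SE, a Wald statistic (a score), a p-value and an adjusted p-value. Of 18218 genes in the authors' deposited table, 251 had an adjusted p under 0.05, of which 35 were called here (13.9% of the deposited calls and 51.5% of the 68), and Ttr had a log2 fold change of −1.94. Gm16869 was at −0.46 by the authors and at −2.11 here. The fold changes of the 2 sources may therefore be on unlike scales, and the Ttr values should not be compared directly.

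Of 37991 gene identifiers 37205 took their symbol from that build's annotation and 49 from the deposited table. Genes were kept by filterByExpr by group, leaving 11153. All 18 libraries were fitted with edgeR 4.0.16 (R 4.3.3) quasi-likelihood models after TMM scaling, with group as the only term and 12 residual degrees of freedom. Adjustment was by Benjamini-Hochberg over all genes, with a threshold of 0.05. Standard errors come from the F statistic. The code was tested on simulated data. Totals ran from 1755819 to 10145265 counts, and intervals on counts cover counting error only.

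Alternatives were library totals, DESeq2 size factors, removal of mitochondrial ribosomal RNA, no filter or a stricter one, the 2 groups alone, a replicate block, that RNA's share as a covariate, DESeq2 1.42.0, limma-voom 3.58.1, each library left out, and both PBS replicates 1 and 2 left out.

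The rule for naming genes took Ttr, the 15 highest and 15 lowest log2 fold changes among called genes whose groups are apart and whose mean log2 CPM reaches 1, the 10 smallest p, up to 6 called members of each list or else up to 3 as values, and genes called in the fit of 2 groups. Genes of the interferon list beyond these, the 12 that kept their size against PBS replicate 3, AY036118, Serpina7 and Tagln2 were chosen after their values were seen. The values of 1 gene of the interferon list are not reported here. The members and lists were chosen with earlier results of these data known. For siRNA + scrambled REVERSIR replicate 2 the title was used, as its file is numbered differently. Promoters came from RefSeq (GRCm38.p6) and were searched with Python 3.11.15.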

Additional observations from a re-analysis of the deposited data

Results flagged for a closer look

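Past the threshold, 2 of 11153 genes differed in the effect of the siRNA with and without the scrambled REVERSIR, by the interaction term of the edgeR fit (0.0179%, with 1267 at an unadjusted p under 0.05). This term sets siRNA + scrambled REVERSIR over scrambled REVERSIR against siRNA over PBS.

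Serpina7, the thyroxine-binding globulin of plasma, had a difference of −1.02 ± 0.150 log2 units (95% interval −1.33 to −0.71, edgeR adjusted p = 0.00584). It had 163, 168 and 206 CPM in siRNA + scrambled REVERSIR, against 262, 277 and 281 CPM in scrambled REVERSIR, and 202, 229 and 261 CPM in siRNA, against 177, 161 and 185 CPM in PBS. The siRNA libraries were thus below the scrambled REVERSIR ones in its presence and above the PBS ones in its absence. The difference was past the threshold in 21 of 22 alternatives, between −1.29 and −0.92, and without PBS replicates 1 and 2 it was −0.94 with an adjusted p of 0.587.

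Tagln2, an actin-binding protein, had a difference of −0.67 ± 0.117 log2 units (95% interval −0.92 to −0.43, edgeR adjusted p = 0.0324). It had 231, 213 and 225 CPM in siRNA + scrambled REVERSIR, against 247, 249 and 250 CPM in scrambled REVERSIR, and 254, 260 and 264 CPM in siRNA, against 168, 159 and 218 CPM in PBS. PBS replicates 1 and 2 were the low libraries. The difference was past the threshold in 13 of 22 alternatives, between −0.93 and −0.41, and without PBS replicates 1 and 2 it was −0.41 and did not pass (adjusted p = 1.00).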

How the results depend on the processing

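Ttr against PBS stayed lower and past the threshold in 17 of 17 alternatives, between −2.45 and −2.01 on the log2 scale, and its comparisons with scrambled REVERSIR, siRNA + TTR REVERSIR and siRNA alone kept direction and side of the threshold in every alternative run for them. The count of genes called against PBS did not: it was 68, and became 3546 with library totals alone, 564 with no filter on low counts, 7 with the 2 groups alone, 213 with DESeq2, 119 with limma-voom and 2 with the mitochondrial ribosomal RNA share as covariate. Of these, 37, 68, 5, 35, 65 and 1 in the same order were among the 68. Leaving out 1 library gave counts from 1 to 1146, the lowest without siRNA + scrambled REVERSIR replicate 2 or PBS replicate 1 and the highest without PBS replicate 3. Without PBS replicates 1 and 2 it was 1. With fewer libraries the fit has fewer degrees of freedom; beyond that the cause was not tested. Without PBS replicates 1 and 2, 3 named genes changed sign, Serpina1c to 0.012, Mup16 to 0.033 and mt-Nd6 to −0.020. With library totals 10 named genes that had not passed changed sign, Slco1a1 to 0.063, Tsg101 to 0.11, Vps29 to 0.10, Orm2 to 0.030, Fgb to 0.071, Me1 to 0.12, Sel1l to 0.11, Txn1 to 0.045, Onecut2 to 0.063 and Zfp238 to 0.028. Against siRNA the count of 0 became 33 with no filter, where 20065 genes were tested. Same-numbered libraries of the 2 groups had deviations correlated at 0.061, −0.037 and 0.13, and differently numbered ones at −0.18 to 0.15. With 3 libraries per group these values cannot tell whether the replicate numbers pair the libraries, and the labels do not say. With a replicate block 67 genes were called, 59 of them among the 68, and Ttr was at −2.29. The interferon list median was between 0.099 and 0.43, the highest with library totals, which move the median gene by 0.32. Genes under a few CPM, such as Gm16869, rest on few reads per library.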
